A study of Schizosaccharomyces pombe with 36 samples.

Results

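The windows described here were the 208 of 4170 non-overlapping 3-kb windows of the fission yeast genome that had the highest share of Pol δ over both strands when the *RTS1* barrier was off. Each window joined 10 bins of 300 bp on chromosome 1, 2 or 3. The stretch of chromosome 2 between 840 and 900 kb, which holds the *RTS1* construct, was left out, and every one of the 4170 windows had at least 10 counts per strand in the 8 libraries that set the ranking. In each of 4 pairs of libraries the counts were divided by the library total, the scaled Pol δ count was divided by that of both polymerases together, on the forward (f) and on the reverse (r) strand, and both strands and then the 4 pairs were averaged. The members were chosen by this measured share, as the highest 5% of windows. This share had a median of 56.3% in the members (lowest 54.8%, highest 66.2%) and of 48.3% in all windows (lowest 37.4%), which describes the choice and is no result.

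Polymerase usage sequencing (Pu-seq) reads where a replicative polymerase has worked from the ribonucleotides that its mutant form inserts and that cells without RNase H2 activity on them do not remove. At a canonical fork the leading strand is made by Pol ε, while Pol α primes the lagging strand and Pol δ extends it, so a passing fork leaves Pol δ on one strand only. A fork that is arrested at *RTS1*, collapses and is restarted by homologous recombination uses Pol δ on both strands, and a window rich in Pol δ on both strands could be sought as a sign of such restart elsewhere in the genome.

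The study followed restart at *RTS1* in 36 libraries, 1 per strain, of which 32 form 16 pairs of a Pol δ and a Pol ε mutant and 4 come from Pol α mutants. The Pol δ strains carried *cdc6-L591G* (*cdc6-L591M* in 1 strain), the Pol ε strains *cdc20-M630F* and the Pol α strains *pol1-L850F*, all with *ade6-704*, *leu1-32* and *ura4-D18*, and cells were grown at 30 °C in rich medium. In 4 barrier-on pairs (*rtf1*+) and the 4 barrier-off pairs (*rtf1::nat*) *RTS1* on chromosome II, with the natural copy replaced (*RTS1natural::Phleo*), was followed by 10 copies of the ribosomal DNA barrier (rRFB) in 4 backgrounds: *rnh201-RED pku70-d*, *rnh201-RED pku70+*, *rnh201-d pku70-d* and *rnh201-d pku70+*. Both *rnh201* alleles leave ribonucleotides in the DNA, by loss of the gene in *rnh201-d* and of ribonucleotide recognition in *rnh201-RED*. The other 8 pairs carried other constructs: *RTS1-rRFB* with *rtf1* under the *adh1* promoter, a tandem *RTS1*, a second, inverted *RTS1* (the 1 *rnh201-RED* pair of this set), *RTS1* alone at *tel2*, *mns1* or *mek1* on chromosome I or at *spo9* on chromosome II, and the rRFB array at *mns1*. All 8 of these pairs were *pku70+* and were taken as barrier on, except the rRFB array pair, which has no inserted *RTS1*. The Pol α libraries came from *pku70+* strains of the *RTS1-rRFB* construct, barrier on and off, with either *rnh201* allele.

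Depth ran between 3304406 and 84420592 counts per library. Labels and counts differed in a few places. The 4 *rnh201-d* libraries labelled *pku70-d* kept between 0.614 and 0.936 of the flanking count level over *pku70* (their label, *Ku70:leu2*, does not say how much sequence was lost), whereas the *rnh201-d* barrier-off Pol α library labelled *pku70+* had 0. The Pol δ library of the *rnh201-d pku70+* barrier-off pair, which took part in the ranking, had 0.278 of the flanking level over *rtf1*, against at most 0.0051 in the other barrier-off libraries. The inverted pair was assigned by its titles, which go against the polymerase alleles listed for it, and the *tel2* pair by its titles as barrier on, although *rtf1::nat* is listed and its counts over *rtf1* were 0.952 and 1.15 of the flanks. Without the *rnh201-d pku70+* barrier-off pair in the ranking the members' median share in the barrier-on pairs was 56.3%, and without the *rnh201-d pku70-d* pair it was also 56.3%.

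The sequence with the highest barrier-on Pol δ share is shown for 2 of the highest members whose file coordinates are those of the reference (RefSeq, ASM294v3, plus strand), so that they can be read beside the base composition of the members. Capitals mark every run of 6 or more A or of 6 or more T. Of all 300-bp bins of the reference, 55.2% hold such a run, searched as A or T on the plus strand, which covers both strands. One bin, at chr1:3576601-3576900, lies in no annotated gene, has 25.3% G and C and had a Pol δ share of 64.4% ± 6.85 (SD over 4 barrier-on pairs). Its longest run is 18 T. The other, at chr3:12901-13200, lies in the ribosomal DNA outside its annotated genes, has 37.7% G and C and had a share of 64.4% ± 11.9. Its longest run is 9 A.
chr1:3576601-3576900: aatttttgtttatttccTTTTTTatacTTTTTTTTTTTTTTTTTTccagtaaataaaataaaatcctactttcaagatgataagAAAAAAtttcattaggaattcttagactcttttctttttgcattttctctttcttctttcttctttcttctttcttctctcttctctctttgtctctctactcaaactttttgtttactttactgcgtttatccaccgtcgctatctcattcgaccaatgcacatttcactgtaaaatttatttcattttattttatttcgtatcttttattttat
chr3:12901-13200: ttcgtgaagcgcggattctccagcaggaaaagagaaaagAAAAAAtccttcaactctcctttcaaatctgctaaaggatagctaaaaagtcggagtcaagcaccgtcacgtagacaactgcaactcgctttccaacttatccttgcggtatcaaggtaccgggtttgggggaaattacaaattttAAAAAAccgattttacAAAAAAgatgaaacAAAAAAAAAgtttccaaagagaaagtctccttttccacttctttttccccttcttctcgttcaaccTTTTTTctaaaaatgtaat

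The first question was whether the windows recur in libraries that the ranking did not use. In the 4 barrier-on pairs the members had a median share of 56.4% (lowest 52.3%, highest 67.2%), against 48.8% for all windows. The pairs gave member medians of 55.0% (*rnh201-RED pku70-d*), 56.9% (*rnh201-RED pku70+*), 56.8% (*rnh201-d pku70-d*) and 57.0% (*rnh201-d pku70+*), and the medians of all windows in the same pairs were 49.5%, 49.7%, 47.9% and 48.1%. The members thus stood above the rest in each pair. Of the 208 members, 150 (72.1%) were again in the highest 5% and 193 in the highest 10% of windows. Across the 4170 windows the barrier-on and barrier-off shares had a correlation of 0.954, a description across windows that share libraries' scaling and base composition.

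Tested window by window, Pol δ counts exceeded Pol ε counts in 168 of the 208 members and fell below them in none, in the 8 barrier-on libraries (edgeR, adjusted p under 0.05, with *rnh201* and *pku70* as covariates). Over all windows 21.2% were called higher and 19.3% lower. The median log2 ratio was 0.59 for the members and −0.01 for all windows. With 1 pair left out, 126 members were called without the *rnh201-RED pku70-d* pair and 0 without any one of the others, where 163 (without *rnh201-RED pku70+*), 153 (without *rnh201-d pku70-d*) and 155 (without *rnh201-d pku70+*) had an unadjusted p under 0.05 and the median log2 ratio stayed between 0.51 and 0.59. Scaled by library totals without TMM, 141 members were called, and the calls over all windows shifted to 647 higher and 1243 lower, against 886 and 803 with TMM. Each strain is 1 library, so these p-values measure the spread between strains of different background.

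The excess was also seen in strains with the other constructs. In the 8 other pairs the 204 members with a value in all of them had a median share of 55.1% (lowest 50.3%, highest 62.0%), against 49.4% for 4131 windows. The pair medians of the members ran from 53.3% (*RTS1* at *tel2*) to 57.9% (inverted *RTS1*). Pol δ was called higher in 165 of 204 members and lower in none, with 27.4% of all windows called higher and 28.1% lower and median log2 ratios of 0.43 and −0.01. Both sets of pairs called 152 of 204 members. With construct as a block in place of the allele, 188 were called. Over the 12 pairs outside the ranking, 152 of 204 members (74.5%) were above the median window in every pair, against 916 of 4131 windows (22.2%), and 197 members were above it in 10 or more.

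**Figure D1:**
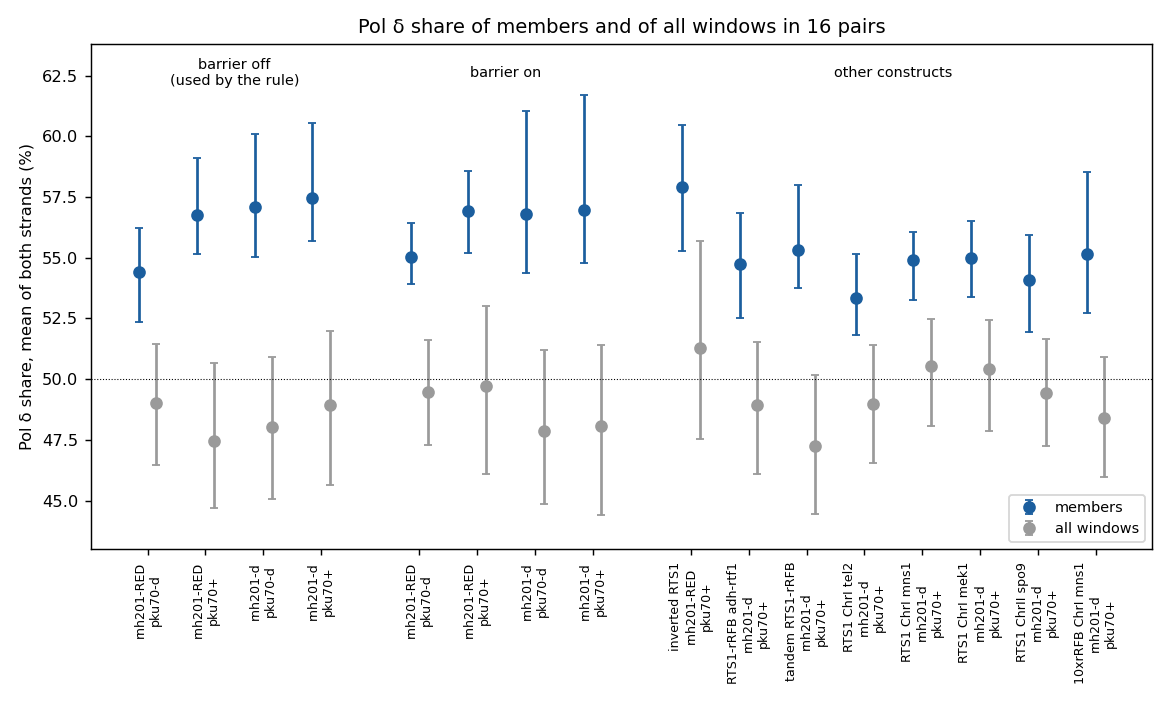
Pol δ share averaged over both strands (y axis, percent) in 16 pairs of libraries (x axis): points are medians over windows and bars run between the quartiles, for members (blue, left of each pair) and all windows (grey). The members' medians lie between 53.3% and 57.9% and those of all windows between 47.2% and 51.3%; the 4 barrier-off pairs set the choice of members.

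The second question was whether both strands were rich in Pol δ. All 208 members were above 50% on the mean of both strands in the barrier-on pairs (1654 of 4170 windows were), but 62 of them (29.8%) were above 50% on each strand, against 136 of 4170 windows (3.26%). The median difference between f and r was 27.6 percentage points in the members and 33.6 in all windows. Scaled by library totals, most members thus kept one strand at a Pol δ share of 50% or less. The 50% line depends on the scaling and does not give which polymerase made more of a strand. Scaled by the median bin, the members' median share was 58.6% and that of all windows 50.7%, and the count of 62 was not repeated that way. Where at least 70% of Pol α counts lay on one strand, the strand without Pol α, which is the leading strand, had a median Pol δ share of 33.2% in 30 members with rightward forks and 30.5% in 46 with leftward forks, against 21.1% of 793 and 21.9% of 816 windows. The lagging strand had 81.5% and 82.1% in those members, against 78.8% in both sets of windows. The lagging strand thus held the larger Pol δ share in these 30 and 46 members. Their difference from all windows was larger on the leading strand than on the lagging strand.

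At the construct itself 8 kb of the longer stretch between *RTS1* and the rRFB were measured, and these had another pattern. With the barrier on, their Pol δ share averaged 74.2% on f and 73.4% on r, and the mean of both strands ran from 67.9% (*rnh201-d pku70-d*) to 79.9% (*rnh201-RED pku70+*). With the barrier off they had between 4.21% and 8.58% on f and between 77.7% and 92.9% on r. Averaged over the 4 pairs, none of the 4170 windows, members included, reached their barrier-on mean of 73.8% (highest window 67.2%). In single pairs this did not always hold. At chr3:717001-720000 the share was 81.7% in the *rnh201-d pku70+* pair, against 73.9% in the stretch. In the *rnh201-d pku70-d* pair it was 72.0%, against 67.9%. In the *rnh201-RED* pairs it was 51.4% (*pku70-d*) and 54.3% (*pku70+*), against 73.7% and 79.9%. The members above 60% on each strand, a limit chosen after the values were seen, were chr1:4152001-4155000 with *kei1*, a gene of sphingolipid synthesis, and the small nucleolar RNA gene *snoR69b* (66.7% on f, 60.2% on r), chr1:3735001-3738000 with the GMP synthase gene *gua2*, *prm1* and a tRNA-Arg gene (62.4% on f, 64.3% on r) and chr1:4962001-4965000 with the silencing gene *clr2* (60.3% on f, 63.0% on r). These are means over 4 pairs, and the alleles differed at the first 2. At *kei1* the mean of both strands was 56.8% and 56.6% in the *rnh201-RED* pairs, against 67.7% and 72.6% in the *rnh201-d* pairs. At *gua2* it was 55.2% and 57.1%, against 69.6% and 71.6%.

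**Figure D2:**
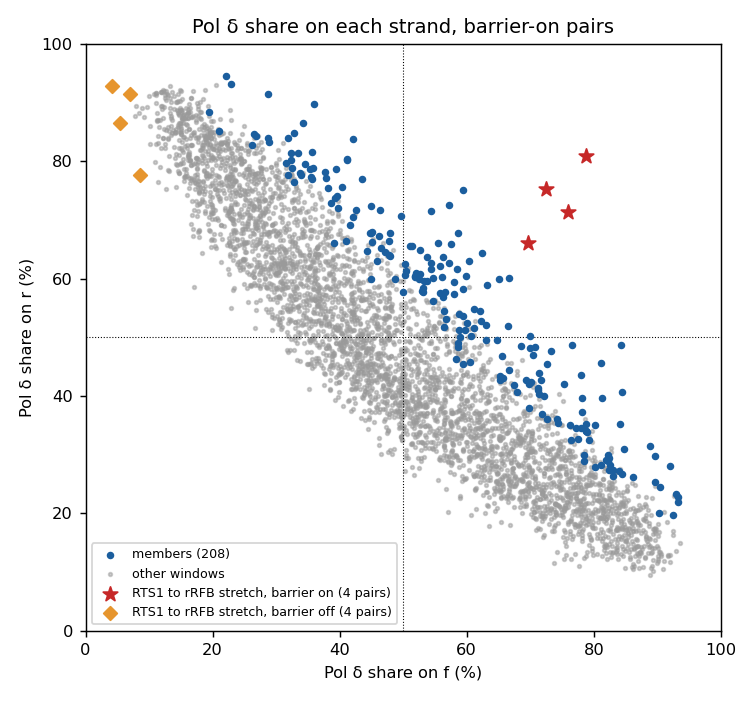
Pol δ share on f (x axis) against r (y axis), in percent, averaged over the 4 barrier-on pairs, for members (blue) and other windows (grey), with 8 kb of the stretch between *RTS1* and the rRFB in each of 4 pairs with the barrier on (red stars) and off (orange diamonds). The members form the outer edge of the diagonal band of all windows, with 62 of 208 above 50% on both axes, while the 4 stars stand apart at 69.6% to 78.8% on f and 66.2% to 81.0% on r. The stars are single pairs, whereas the windows are means over 4 pairs.

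Pol α, which starts each lagging-strand fragment, was not used in the ranking. In the stretch between *RTS1* and the rRFB its counts fell to 0.414 (*rnh201-RED*) and 0.374 (*rnh201-d*) of the median window with the barrier on, against 1.02 and 1.21 with the barrier off, and its share on r was 52.5% and 54.8% with the barrier on, against 93.9% and 90.8% with it off. The members had no such loss. Their Pol α level, taken per library total over the median window, had a median of 1.11, with 1.02 (*rnh201-RED*, barrier on), 1.18 (*rnh201-RED*, off), 1.10 (*rnh201-d*, on) and 1.11 (*rnh201-d*, off) in the single libraries. Without the *rnh201-d* barrier-off library, the one with no counts over *pku70*, the median was 1.09. Pol α was above the median window in all 4 libraries in 84 of 208 members (909 of 4170 windows) and below it in all 4 in 20 (916 of 4170 windows). The lowest level of a member was 0.535, at chr1:4527001-4530000, where Pol δ (0.596) and Pol ε (0.406) were low as well. The 3 members above 60% on both strands had Pol α levels of 1.21 (*kei1*), 1.01 (*gua2*) and 0.859 (*clr2*).

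In the barrier-on libraries the members' median level was 1.44 times the median window for Pol δ and 0.899 for Pol ε, so that the raised share came with more Pol δ and somewhat less Pol ε. The stretch between *RTS1* and the rRFB had 1.30 (1.08 to 1.54 over 4 libraries) for Pol δ and 0.421 (0.379 to 0.456) for Pol ε with the barrier on. Pol α counts exceeded Pol ε counts in 72 of 208 members and fell below them in none (edgeR, with 11.4% of all windows called higher and 7.75% lower), with a median log2 ratio of 0.29, against −0.01 for all windows. That count was 36 without the *rnh201-d* barrier-off, 44 without the *rnh201-d* barrier-on and 47 without the *rnh201-RED* barrier-off Pol α library, and 33 without the *rnh201-d pku70+* Pol ε library. Pol α against Pol δ gave a median log2 ratio of −0.35 in the members, with 0 of 208 members and 0.0% of windows called lower by edgeR. Here 91 members and 478 windows had an unadjusted p under 0.05, and DESeq2 called 54 members (5.68% of windows).

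Fork direction was read from the strand of Pol α. A rightward fork places Pol α on r, as in the stretch right of *RTS1* with the barrier off, so that the share of Pol α counts on r rises across a place that forks leave in both directions and falls where they meet. Across the 12 kb on either side of a window this share rose by a median of 22.0 percentage points in 200 members with both flanks, against a change of −2.89 in 4138 windows. It rose by 20 points or more at 113 members (56.5%), against 849 windows (20.5%), and fell by as much at 2 members (1.0%), against 807 windows (19.5%). With flanks of 2 windows in place of 4, chosen after seeing the data, 15 members (7.35%) fell by as much, against 734 windows (17.7%). The 2 were chr1:3534001-3537000, with *tam5* and *deb1*, and chr3:1827001-1830000, with *trs130* and the mismatch repair gene *msh6*. Members made up 13.3% of the rising, 3.42% of the level and 0.248% of the falling windows. The single Pol α libraries gave between 94 (*rnh201-d*, barrier off) and 121 (*rnh201-RED*, barrier off) rising members. Across all windows the Pol α r share and the Pol δ difference r minus f had a correlation of 0.962, so both readouts gave the same fork direction.

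**Figure D3:**
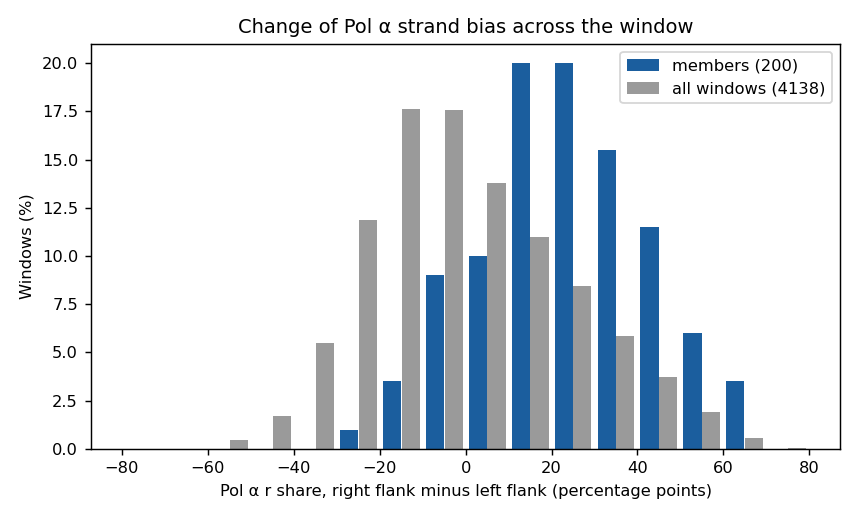
Share of windows (y axis, percent) by the change of the Pol α r share across the window (x axis, mean of the 12 kb to the right minus that of the 12 kb to the left, in percentage points, in steps of 10), for 200 members (blue) and 4138 windows (grey). The members lie to the right, with a median of 22.0 points, against −2.89 for all windows.

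The share of Pol δ followed fork direction beyond the members too. In the barrier-on pairs it had a median of 51.8% in rising, 48.4% in level and 46.2% in falling windows, and with the members set aside the medians were 51.4%, 48.3% and 46.2%. The other constructs gave 52.2%, 49.2% and 47.3%. The part of fork direction in the members' share was not tested.

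Around the members the share declined gradually. Its median was 56.4% in the member window, 54.1% and 54.3% in the windows 3 kb to the left and right, 52.4% and 52.6% at 12 kb and 50.3% and 50.7% at 30 kb. The Pol α r share had a median of 29.3% at 9 kb to the left, 49.0% in the window and 65.7% at 9 kb to the right. The Pol δ level declined to 1.14 at 12 kb on both sides, whereas the Pol ε level was lowest in the window itself. Members also lay next to each other: they formed 131 runs, of which 85 were single windows, 31 were pairs and 15 were longer, so neighbouring members are not separate observations. The longest run, 9 windows at chr3:1-27000, lay in the ribosomal DNA.

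**Figure D4:**
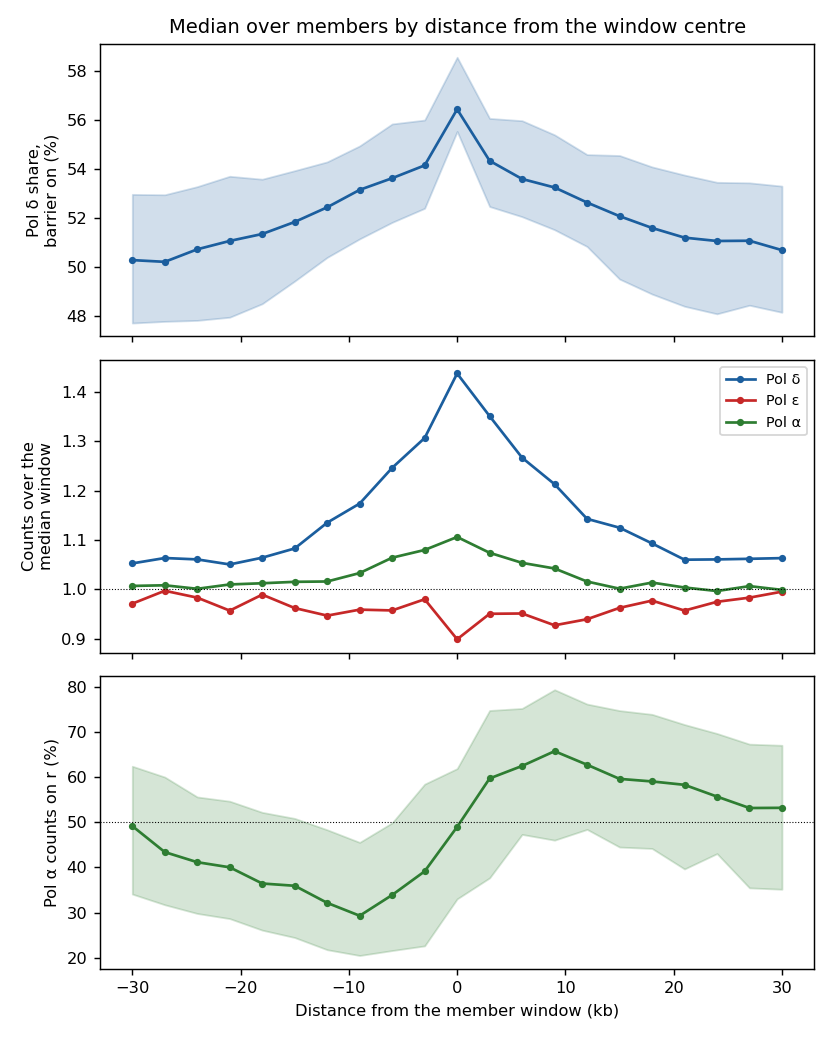
Medians over the members by distance from the member window (x axis, kb): Pol δ share in the barrier-on pairs (top, percent), levels of Pol δ, Pol ε and Pol α over the median window (middle) and Pol α counts on r (bottom, percent), with bands between the quartiles in the top and bottom panels. The Pol δ share and level peak at the window, while the Pol α r share climbs through 49.0% there, with 29.3% at 9 kb to the left and 65.7% at 9 kb to the right.

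Chromosome 3 held 79 members of 817 windows (9.67%), chromosome 1 held 67 of 1859 (3.60%) and chromosome 2 held 62 of 1494 (4.15%). In sequence, members were poor in coding DNA. Of 206 members matched to the reference, a median of 51.7% of the length lay under protein-coding genes, against 83.8% of 4162 windows. Their median G and C content was 35.5%, against 36%, and that of their poorest 300-bp bin was 26.3%, against 28.3%. A run of 10 or more A or of 10 or more T was present in 142 members (68.9%) and in 35.0% of windows. Of the bins printed above, the one on chromosome 1 holds such a run and the one on chromosome 3 does not.

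By annotated feature, ribosomal RNA genes (17 of 206 members, 8.25%, against 1.13% of windows) and tRNA genes (18 members, 8.74%, against 3.24%) were overlapped by a larger share of members than of all windows. Of the 17 members with a ribosomal RNA gene, 11 were all the windows with such a gene in the repeats at the ends of chromosome 3, which lie near each other in many copies, and elsewhere 6 of 36 such windows were members. Windows within 100 kb of a chromosome end made up 7.28% of members (15), against 4.81% of windows. All of these members lay on chromosome 3, most of them in its ribosomal DNA. Members and non-members near an end together had a median barrier-on share of 46.8%, against 48.8% for all windows. Pseudogenes were overlapped by 2.43% of members, against 1.01%. For Tf2 retrotransposons and their long terminal repeats the members (6.31%) were close to all windows (5.77%). Genes for cytosolic ribosomal proteins, which are among the most transcribed, were overlapped by 2.43% of members (*rpl1002*, *rps2501*, *rps402*, *rps1002* and *rpp202*), against 3.89% of windows. None of the 22 windows with a gene for a subunit of Pol α, Pol δ or Pol ε was a member. Single members (0.485% each) held the pyruvate kinase gene *pyk1* (0.673% of windows with a glycolytic or fermentation gene), the histone genes *hta1* and *htb1* (0.192% with a histone gene) and *sap1*, whose product binds fork barriers (0.264% with a barrier gene). The cell-surface glycoprotein genes *pfl2* and *pfl3* lay in 3 members (1.46%, against 0.625% of windows with a gene of this class). Counts of 1 to 5 members are too few to set against these shares.

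**Figure D5:**
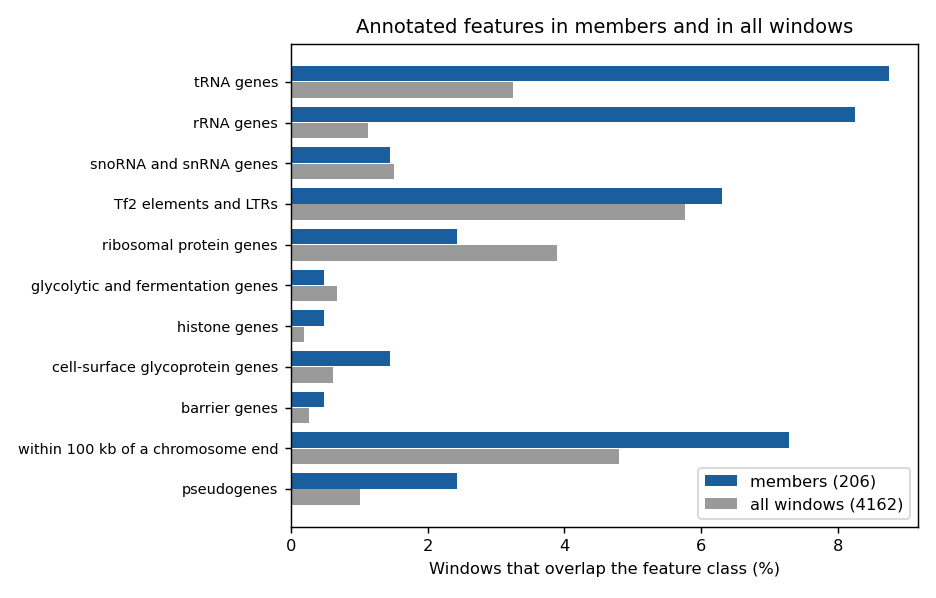
Share of windows (x axis, percent) that overlap each class of annotated feature, for 206 members (blue) and 4162 windows (grey). The bars for rRNA genes (8.25%, against 1.13%) and tRNA genes (8.74%, against 3.24%) differ most.

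In the 18 members with tRNA genes the median Pol α level was 0.910, against 0.940 in all 135 windows with a tRNA gene, and their Pol δ and Pol ε levels were 1.10 and 0.763, against 1.02 and 0.907. Centromeres were not analysed as such, and the densest tRNA stretch of 120 kb on each chromosome was taken in their place, since tRNA genes flank fission yeast centromeres. These stretches, with 11 genes on chromosome 1, 27 on chromosome 2 and 21 on chromosome 3, together held 30 members of 123 windows, and 13 of the 30 had a tRNA gene. Of the 20 members with Pol α below the median window in all 4 libraries, 9 lay there, against 21 of 916 such windows. The highest member with a tRNA gene was chr1:3735001-3738000 (tRNA-Arg), at 55.2%, 57.1%, 69.6% and 71.6% in the barrier-on pairs in the order of backgrounds given above. Its *rnh201-d* pairs were both higher than its *rnh201-RED* pairs.

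Ribosomal DNA is present in many copies of which the files carry a few. Of 15 windows with a level above 5 times the median window 13 were members, all on chromosome 3, with Pol α levels up to 27.1. These 13 had barrier-on medians of 58.9% (*rnh201-RED pku70-d*), 55.4% (*rnh201-RED pku70+*), 65.5% (*rnh201-d pku70-d*) and 55.4% (*rnh201-d pku70+*), a wider spread than that of the other 195 members (54.9%, 57.1%, 56.4% and 57.1%). Reads of such copies cannot be told apart. Without them 161 of 195 members were called higher in Pol δ in the barrier-on pairs and 158 of 191 in the other constructs. Of all windows, the same tests called 21.2% and 27.4% higher.

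The single members with the highest ranking shares differed in how far they recurred. The first, chr3:717001-720000 in the files (718741-721740 in ASM294v3), holds the pseudogene SPCC18B5.02c and had barrier-on shares of 51.4%, 54.3%, 72.0% and 81.7%. Both *rnh201-RED* pairs were thus low and both *rnh201-d* pairs high, and the excess over Pol ε did not pass the test (log2 1.15, adjusted p = 0.0602), while in the other constructs it did (log2 0.41, adjusted p = 0.0177). The second, chr2:1752001-1755000 (1748281-1751280 in ASM294v3), holds a non-coding RNA gene and had 54.9%, 57.3%, 65.9% and 74.8%. It passed the barrier-on test (log2 0.85, adjusted p = 0.0167) but not that in the other constructs (log2 0.30, adjusted p = 0.166). The third, chr2:2445001-2448000 (2442161-2445160 in ASM294v3), with *ucp3*, a 5S rRNA gene and the transporter gene *fnx1*, had 59.2%, 64.3%, 72.1% and 73.4%. It was high in every pair, and it passed both tests, with log2 1.33 (adjusted p = 0.00863) in the barrier-on pairs and log2 0.79 (adjusted p = 4.89e-06) in the other constructs.

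The fourth, chr1:3576001-3579000, had 62.9%, 57.3%, 56.4% and 64.0% and passed the barrier-on test (log2 0.82, adjusted p = 0.0134) but not that in the other constructs (log2 0.43, adjusted p = 0.0882). The fifth, chr1:3876001-3879000, starts within the 5′ end of *pma1*, the gene of the plasma membrane proton pump on the minus strand, runs upstream of it and had 48.1%, 49.1%, 62.1% and 75.1%, with a mean of 51.4% in the other constructs. It passed neither test (adjusted p = 0.0981 and 0.122). The sixth, chr2:1458001-1461000 (1454281-1457280 in ASM294v3), with *nep2*, which encodes a protease for NEDD8, had 55.5%, 54.2%, 62.5% and 70.9% and passed both (adjusted p = 0.0411 and 0.043). The next 4 lie in the ribosomal DNA and did not pass either test (adjusted p from 0.0762 to 0.197 in the barrier-on pairs and from 0.0637 to 0.528 in the other constructs).

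At the threshold, the members just inside had ranking shares of 54.76% (chr3:1194001-1197000, with *nse1* and *hsp10*), 54.75% (chr1:3990001-3993000, with *pfl2*) and 54.75% (chr3:57001-60000, with the catalase gene *ctt1*). The windows just outside had 54.74% (chr2:1635001-1638000), 54.74% (chr3:708001-711000, with *bfr1*) and 54.74% (chr3:1446001-1449000). The limit of 5% therefore cuts through a continuous range.

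Several of these windows differed between the *rnh201* alleles, and this was tested over all windows in the barrier-on pairs. The log2 ratio of Pol δ to Pol ε was larger in *rnh201-d* than in *rnh201-RED* in 72 of 208 members and smaller in 5 (edgeR), while 17.6% of all windows were called larger and 15.0% smaller. The median difference, *rnh201-d* minus *rnh201-RED*, was 0.25 in the members and 0.00 in all windows. It was largest among the members, which are named here after their values were seen, at *pfl2* (chr1:3990001-3993000, log2 2.57), the *pma1* gene itself (chr1:3873001-3876000, log2 2.55) and *rtn1* (log2 2.53), whereas *pyk1* (−0.48), 2 windows of *rpb1*, which encodes the largest subunit of RNA polymerase II (−1.08 and −0.50), chr3:207001-210000 (−1.21) and chr3:111001-114000 (−0.45) were smaller. Allele and strain cannot be told apart within a background. In the barrier-off pairs that set the ranking, the members' median share was 57.2% in the *rnh201-d* and 55.5% in the *rnh201-RED* pairs. All windows had 48.4% and 48.2% there. The members thus leaned to *rnh201-d* already when they were chosen, so their allele counts are not independent of the choice. The 4 barrier-on values of a member had a median SD of 3.01 percentage points, against 1.99 for all windows. The half-width of the 95% counting interval of a member's share was between 0.896 and 1.87 points at the median in these pairs, so the spread between strains exceeded counting error, which is all that such intervals cover.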

How the data were processed

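The authors aligned reads with Bowtie2 (version and genome build not given in the sources used here) and deposited counts of fragment ends per 300-bp bin and strand without normalization. Chromosome lengths in the files were matched to ASM294v3 with each construct added, and windows of other constructs were shifted by bases estimated from count profiles. The 36 libraries hold 1 strain each. Windows of 3 kb, levels and shares were computed with Python 3.11.15, numpy 2.4.6 and pandas 2.3.3. Tests used edgeR 4.0.16 (R 4.3.3) on counts of both strands, with TMM, quasi-likelihood F-tests and p-values adjusted by Benjamini-Hochberg (threshold 0.05), with DESeq2 1.42.0 as an alternative. On simulated counts with 50 windows changed 1.5-fold, 50 were recovered in the barrier-on test, and of 50 changed 1.25-fold, 22 were. The simulated counts had a fixed dispersion and no differences between backgrounds, so this does not show how many changes the test finds in these data. The members and feature lists were chosen with earlier results of these data known. Windows named are the 10 highest, 3 on either side of the threshold and the highest of each feature class; others are marked. The allele test and the Pol α strand measure were added after the values were seen. Alternatives changed membership, scaling, tool, filter, covariates and libraries. The sequence of 1 further bin is not reported here.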

Additional observations from a re-analysis of the deposited data

Results flagged for a closer look

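Of 33 groups of 4 to 10 values examined for a single value far from the others, 3 had one, and chance alone gives about 1 in 20. The members' median Pol δ share was 55.0% in the barrier-on *rnh201-RED pku70-d* pair, below the other 3 pairs. It was 57.9% in the inverted *RTS1* pair, above the other 7 constructs, and that pair also had the highest median of all windows, 51.3%. The Pol α level of the ribosomal DNA window chr3:2445001-2448000 was 23.8 in the *rnh201-RED* barrier-off library, with the other 3 libraries at 18.3 to 18.9.

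The Pol δ excess over Pol ε differed between the *rnh201* alleles in the test of the difference itself, with 72 members larger in *rnh201-d* than in *rnh201-RED*. Of all windows, 17.6% were called larger. The members already leaned to *rnh201-d* in the pairs that set the ranking, so this count is not independent of their choice. The log2 difference was 2.04 at chr3:717001-720000 (adjusted p = 5.41e-06), 1.83 at chr1:3876001-3879000 beside *pma1* (adjusted p = 0.00024), 0.75 at chr2:2445001-2448000 (adjusted p = 0.000402) and 0.73 at chr2:1752001-1755000 (adjusted p = 0.0355). With the barrier on, both *rnh201-d* pairs were above both *rnh201-RED* pairs at each of these windows, while with the barrier off this did not hold at chr2:1752001-1755000 and chr1:3876001-3879000. The direction rests on 2 pairs of strains per allele.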

How the results depend on the processing

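Of 216 values under alternative settings, 185 stayed within a set limit of the value reported and 31 did not, and no direction turned. The limit was 1.5 times for counts, 1 SD for shares and levels and a 95% binomial interval over the bases of a window for G and C content. With the highest 2.5% of windows as members, Pol δ was called higher in 84 (barrier on) and 79 (other constructs), Pol α higher than Pol ε in 41, the allele difference larger in 43, 75 were again in the highest 2.5% with the barrier on, 37 were above 50% on both strands, 9 overlapped a tRNA gene, 54 had a rise of 20 points and the median share was 58.5%. With the highest 10% these were 312, 331, 149, 142, 328 again in the highest 10%, 89 above 50% on both strands, 33 tRNA overlaps, 217 rises and 55.5%. These 2 settings change the number of members itself, so their counts are not comparable with those of the 208 members. Many of the 31 values come from them. Of all windows, the tests called 21.2% (barrier on), 27.4% (other constructs), 11.4% (Pol α over Pol ε) and 17.6% (allele) higher. Scaling by the median bin gave 58.6% (all windows 50.7%) and a Pol α level of 1.28 (all windows 1.16). Leaving out bins above 4 times or below 0.25 of the median bin, the share was 54.3% (all windows 48.0%), and with members chosen that way the Pol α level was 1.02. DESeq2 called 54 members lower in Pol α than in Pol δ, and without covariates 35 were higher in Pol α than in Pol ε; the cause was not tested.

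Leaving out 1 pair or library gave 0 to 170 members higher in Pol δ with the barrier on and 146 to 176 in the other constructs. The value of 0 came from fits with 3 barrier-on pairs, another such fit gave 126, and the cause was not tested. The median shares were 56.2% to 57.1% and 54.7% to 55.3%. The other ranges were 132 to 157 members in the highest 5%, 59 to 65 above 50% on both strands, Pol α levels of 1.06 to 1.15, 0 to 4 lower in Pol α than Pol δ, 33 to 78 higher in Pol α than Pol ε, 34.4% to 35.8% G and C, 15 to 27 with a tRNA gene, 110 to 116 rises and 59 to 86 for the allele. The ranges for the highest 5%, both strands, G and C, tRNA genes and the allele come only from choosing members without 1 ranking pair. The allele test itself was not run with a library left out. Paired by background as a replicate block, 155 members were called with the barrier on, and by construct 188 in the other constructs, and neither changed a call of direction. The share of all windows called in these block fits is not given here. With flanks of 2 windows, chosen after seeing the data, 97 of 204 members rose and 15 fell by 20 points, and with 6 windows 115 of 196 rose and 0 fell. The rises of all windows at these widths, and their falls with 6 windows, are not given here.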
